A study of Mus musculus with 12 samples.

Results

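Rab small GTPases are molecular switches that, in their GTP-bound form, recruit effectors to a particular membrane and so direct the budding, transport and fusion of vesicles. Guanine nucleotide exchange factors (GEFs) load them with GTP, and GTPase activating proteins (GAPs) switch them off. Rab6 proteins act at the Golgi, where Rab6a is the broadly expressed form and Rab6b, its close paralog, is best known from the brain. Satellite cells, the resident stem cells of skeletal muscle, leave quiescence on activation and then enlarge and divide.

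The genes described here are the 59 protein-coding Rab genes among the 55401 genes of the count table, chosen by symbol (Rab, a number and at most one letter from a to d). The family was chosen with earlier values of Rab6b from quiescent cells known. The KO against WT values of Rab6b in quiescent cells are therefore given as a description without a test. For the other Rab genes, calls and unadjusted p-values of that contrast were read off the same fit. RNA with poly(A) tails was sequenced from Pax7-ZsGreen+ satellite cells of hind limb muscle. All mice were Cxcr4 FL/FL, carried Pax7-ZsGreen and received tamoxifen at 80 mg/kg on 5 days. By the authors' general methods, mice were afterwards kept on a tamoxifen diet until the end of each experiment. Cxcr4 KO mice also carried Pax7-creERT2 and WT mice lacked cre, so the presence of cre and the loss of Cxcr4 cannot be told apart. Quiescent cells were taken directly after sorting (4 WT and 4 KO libraries), and activated cells after overnight culture (2 WT and 2 KO libraries). The mice were adults, 3 to 4 months old. How many contributed to each library was not given in the sources used here, so p-values measure only the spread between libraries.

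The depth was 12775593 to 23717013 counts in quiescent libraries and 3172164 to 5427280 counts in activated libraries. A ribosomal RNA gene, CT010467.1, took 11.5 to 40.3% of the counts of activated libraries and at most 0.807% of those of quiescent libraries. Xist was at 451 to 817 CPM (counts divided by the TMM-scaled library size) in activated and at 1.20 to 7.17 CPM in quiescent libraries, and the genes of the Y chromosome summed to 0.438 to 6.04 CPM and to 431 to 715 CPM, respectively. State, sex and depth therefore cannot be told apart in any comparison of activated with quiescent cells. Cxcr4 was at 59.1 to 112 CPM in quiescent WT and 12.5 to 21.2 CPM in quiescent KO libraries, and in activated cells at 33.3 and 14.4 CPM in WT and at 5.39 and 13.7 CPM in KO. Pax7, which defines satellite cells, was detected in every library, at 303 to 482 CPM in quiescent WT, 181 to 290 CPM in quiescent KO and 71.2 to 129 CPM in activated libraries.

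Of the 59 Rab genes, 58 passed edgeR's filter on low counts and were tested, and Rab33a did not pass. No Rab gene was at 0 in all 12 libraries. Fewer cells of a type and less RNA per cell cannot be told apart in these bulk samples. A gene was called where edgeR's quasi-likelihood test gave an adjusted p under 0.05 (Benjamini-Hochberg, over 25771 genes), the log2 fold change exceeded 1 in size and the compared groups had a mean normalised count over 10.

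The Rab family as a whole took a similar share of the RNA in each group. Its summed level was 2594 ± 279 CPM (SD, n = 4) in quiescent WT, 2565 ± 413 CPM (SD, n = 4) in quiescent KO, 2576 ± 72.8 CPM (SD, n = 2) in activated WT and 2710 ± 149 CPM (SD, n = 2) in activated KO libraries. The sums overlapped between the groups. Levels of different genes were compared as CPM per kilobase of exon. In quiescent WT cells the highest were Rab7, which governs late endosomes and lysosomes, at 71.5 ± 9.67 CPM per kilobase (SD, n = 4) and Rab6a at 68.1 ± 7.60 CPM per kilobase (SD, n = 4). Rab10, of the secretory and recycling route, followed at 58.0 ± 9.56 CPM per kilobase (SD, n = 4) and Rab1a, of ER to Golgi transport, at 55.3 ± 10.1 CPM per kilobase (SD, n = 4). Rab8b, Rab5c, Rab2a, Rab20, Rab35 and Rab1b came next, from 42.0 to 24.8 CPM per kilobase. Among these 10 genes, neighbours in the order differed by more than the SD of either gene at 3 steps, from Rab6a to Rab10, from Rab1a to Rab8b and from Rab20 to Rab35. The 10 highest genes, picked anew in each group, held 63.8% of the per-length Rab level in quiescent cells of either genotype. They held 70.5% in activated WT and 69.5% in activated KO cells. These are not the same genes in each state, since Rab8b and Rab20, 5th and 8th in quiescent WT, were 15th and 20th in activated WT. The authors' own FPKM values, 1 pooled value per group, placed the 10 genes named above at the top in quiescent WT cells, from 69.4 FPKM for Rab7 to 24.2 FPKM for Rab1b.

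**Figure D1:**
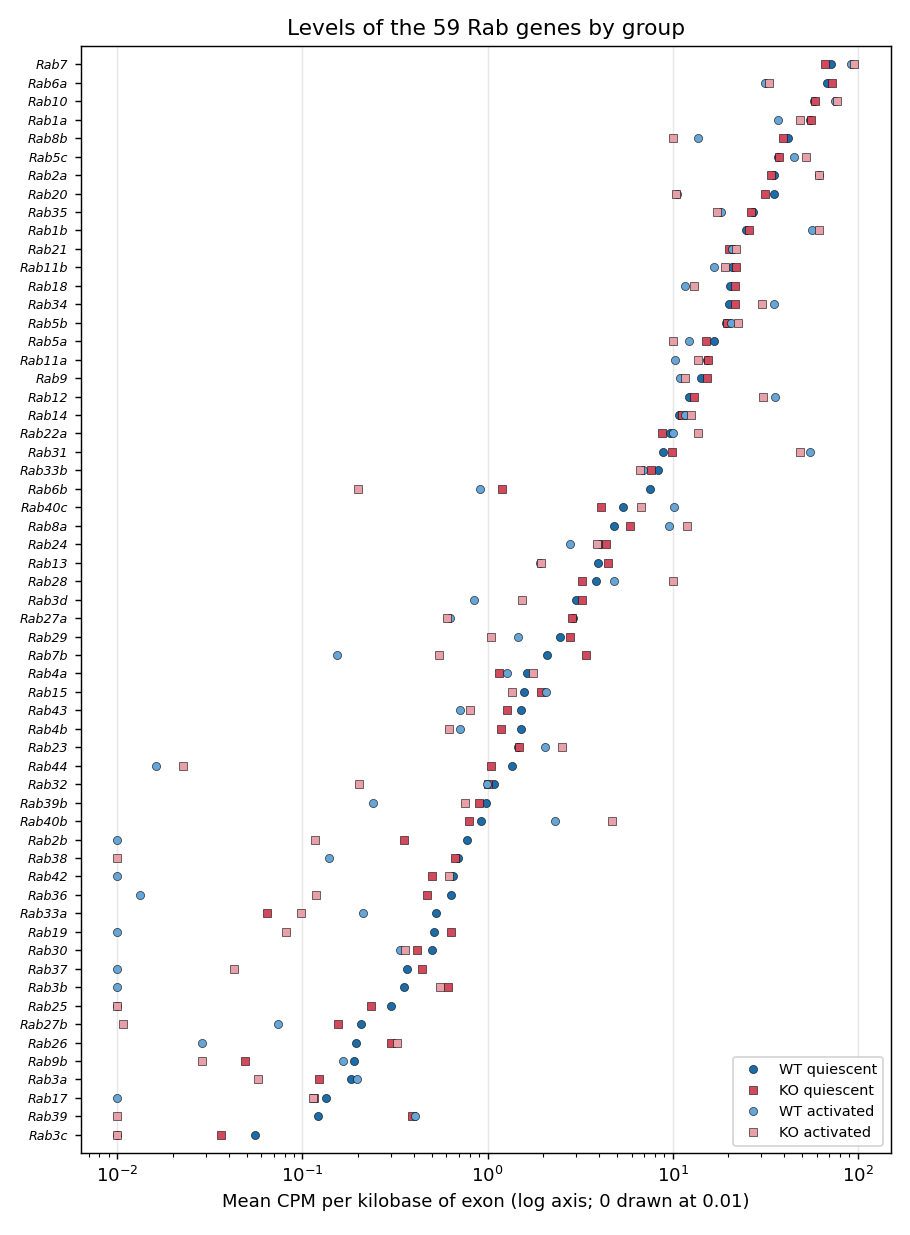
Mean CPM per kilobase of exon (log axis) of the 59 Rab genes, ordered by quiescent WT, with 1 point per group (4 libraries per quiescent and 2 per activated group). Rab7 and Rab6a lead in quiescent WT at 71.5 and 68.1, Rab31, Rab12 and Rab1b lie to the right in activated cells, and Rab6b falls to the left in every group other than quiescent WT.

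Rab6b (ENSMUSG00000032549, chromosome 9 from 103111787 to 103185276 on GRCm38, plus strand) was lower in KO than in WT libraries of quiescent cells. Its level was 46.9, 34.6, 35.4 and 35.0 CPM in the 4 quiescent WT libraries and 7.25, 3.21, 6.73 and 7.04 CPM in the 4 quiescent KO libraries. The highest KO value lay below the lowest WT value, and the log2 fold change was -2.64 (standard error 0.31). This is the contrast from which Rab6b was known, in which 0.0155% of all tested genes were called. Rab6b was the 1 Rab gene among them, a count that its choice fixed.

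The activated libraries are separate from those of that contrast. Rab6b was at 6.04 and 3.07 CPM in activated WT (37 and 7 counts) and at 1.54 and 0.456 CPM in activated KO libraries (6 and 2 counts). Both KO libraries again lay below both WT libraries, on few counts, as they did for 9.5% of all tested genes. The log2 fold change of KO over WT was -2.30 (standard error 0.61), which did not pass the adjusted threshold (edgeR adjusted p = 0.211). DESeq2 gave an adjusted p of 0.0608, and edgeR gave 0.0254 without a filter on low counts and 0.0445 without the second activated WT library. That last fit leaves 1 activated WT library, which is assumed to vary like the other groups. Over all alternatives that gave a value, the log2 fold change lay between -3.39 and -1.70 and the adjusted p between 0.0254 and 1. The difference between the KO effects in the 2 states was 0.34 on the log2 scale (standard error 0.74).

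Rab6a (ENSMUSG00000030704, chromosome 7 from 100607410 to 100641268, plus strand) differed little between the genotypes in either state. It was at 223, 244, 259 and 290 CPM in quiescent WT and 209, 262, 239 and 368 CPM in quiescent KO libraries, with overlapping groups and a fitted log2 fold change of 0.09 (standard error 0.20). In activated cells it was at 124 and 111 CPM in WT and 129 and 120 CPM in KO libraries, giving a log2 fold change of 0.08 (standard error 0.29, edgeR adjusted p = 1). Of its exons, 19.0% by length overlap those of Mrpl48 on the opposite strand. Of the summed per-length level of Rab6a and Rab6b, Rab6b made up 10.1 ± 2.33% (SD, n = 4) in quiescent WT, 1.71 ± 0.703% (SD, n = 4) in quiescent KO, 2.75 ± 1.05% (SD, n = 2) in activated WT and 0.580 ± 0.424% (SD, n = 2) in activated KO libraries. The 2 genes together were at 75.7 ± 6.8 CPM per kilobase (SD, n = 4) in quiescent WT and 73.5 ± 18.6 CPM per kilobase (SD, n = 4) in quiescent KO libraries.

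**Figure D2:**
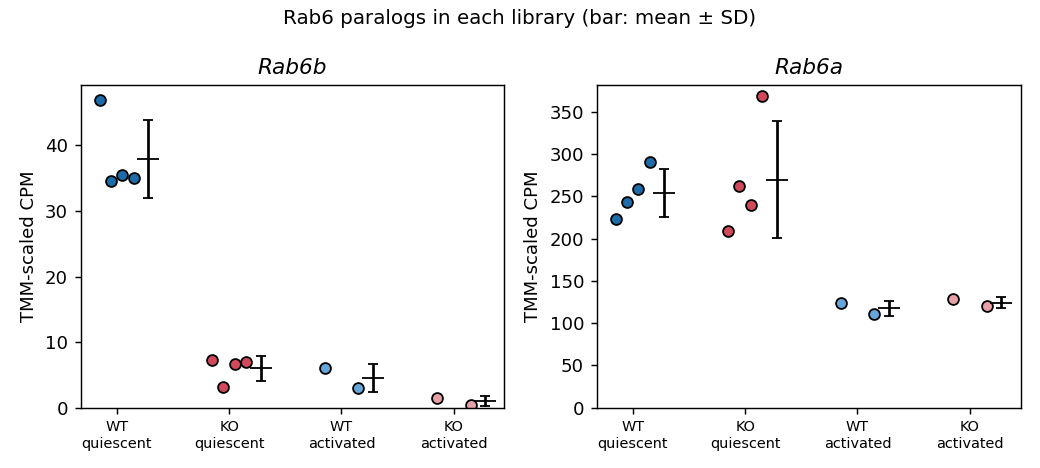
TMM-scaled CPM of Rab6b (left) and Rab6a (right) in each library (points) with the mean and SD of each group (dash and bar; 4 libraries per quiescent and 2 per activated group). Rab6b is at 34.6 to 46.9 CPM in quiescent WT and at or below 7.25 CPM in all other groups, while Rab6a is at 209 to 368 CPM in quiescent and 111 to 129 CPM in activated libraries.

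Pax7 was lower in each quiescent KO library than in each quiescent WT library, and its part in the Rab6b values was not tested.

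Genes around Rab6b were read as a description, since they share the contrast. Within 500 kb of Rab6b the count table holds 33 other genes, of which 19 passed the filter on low counts. The nearest gene on its 5′ side, Slco2a1, a prostaglandin transporter 15785 bp away, was at 76.4, 63.6, 107 and 163 CPM in quiescent WT and 88.5, 34.2, 54.3 and 60.7 CPM in quiescent KO libraries, with overlapping groups and a fitted log2 fold change of -0.79 (standard error 0.31). Gm47468, an antisense RNA 26250 bp away on that side, was at 1.04 to 5.11 CPM in WT and 0 to 1.10 CPM in KO libraries, also overlapping. The nearest gene on the 3′ side, Srprb, a subunit of the signal recognition particle receptor 2756 bp away, was at 41.0 to 52.0 CPM in WT and 37.5 to 49.5 CPM in KO libraries, giving a log2 fold change of -0.07 (standard error 0.19).

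**Figure D3:**
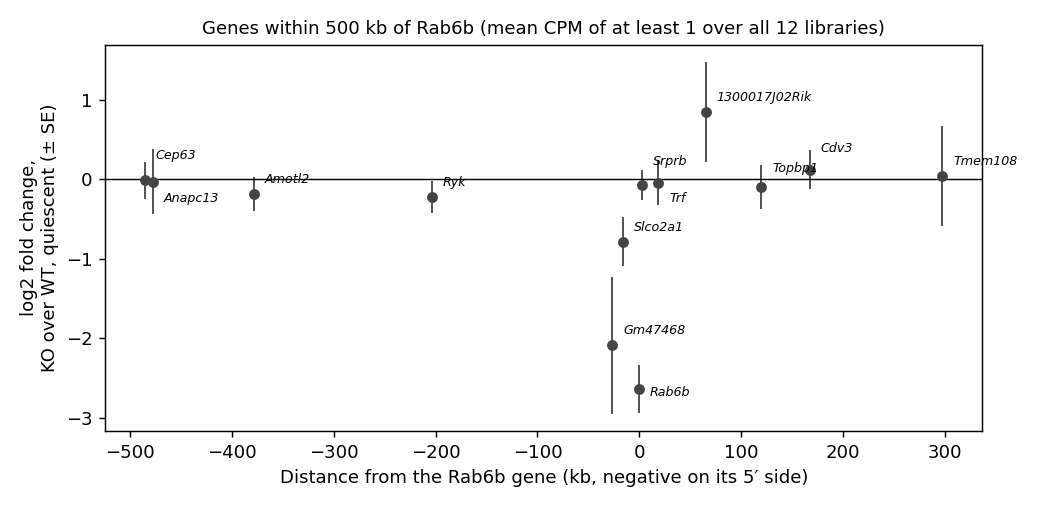
Log2 fold change of KO over WT in quiescent cells (points, with the standard error as bars) against the distance in kb from Rab6b, for the 13 genes of the window with a mean of at least 1 CPM over the 12 libraries. Rab6b at -2.64 and Gm47468 at -2.09 lie lowest, Slco2a1 is at -0.79, and Srprb on the other side is at -0.07.

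No other Rab gene was called between the genotypes in either state. In quiescent cells the other 57 tested Rab genes had a median log2 fold change of -0.03, and the 28 of them with a mean of at least 10 CPM over the 12 libraries lay between -0.38 and 0.30. None of the 57 reached an unadjusted p under 0.05, a level that 1.74% of all tested genes reached. Of the 58 tested genes 2 had all quiescent KO libraries below all WT libraries, beside 0.827% of all tested genes, namely Rab6b and Rab2b. Rab2b was at 2.71 to 4.04 CPM in WT and 0.615 to 2.60 CPM in KO, and the untested Rab33a, also without overlap, had 5 to 19 counts in WT and 1 to 2 counts in KO libraries.

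In activated cells, with 2 libraries against 2, 0 of 58 Rab genes were called by edgeR and 0 by DESeq2, where 0.0504% of all tested genes were called by edgeR. At an unadjusted p under 0.05 there were 6 Rab genes, and 8.37% of all tested genes reached that level. Beside Rab6b they were Rab28, Rab2b, Rab3b, Rab36 and Rab32. Rab28, a Rab of cilia and photoreceptor discs, was at 21.4 and 22.3 CPM in activated WT and at 47.3 and 43.8 CPM in activated KO libraries, giving a log2 fold change of 1.06 (standard error 0.33, edgeR adjusted p = 0.312). The difference of its KO effect between the 2 states was 1.30 on the log2 scale, with an adjusted p of 0.464. The other 4 rest on few counts. Rab3b, of regulated secretion, had 0 and 0 counts in activated WT and 8 and 8 counts in activated KO libraries, and Rab2b, of ER to Golgi transport, had 0 and 0 against 2 and 2 counts. Rab36, of the Golgi, had 1 and 0 against 3 and 3 counts. Rab32, of lysosome-related organelles, had 15 and 5 counts in WT and 1 and 3 counts in KO libraries. None of the 58 genes was called in the test of the difference between the KO effects in the 2 states by edgeR or DESeq2, and 5 had an unadjusted p under 0.05, as did 6.59% of all tested genes, of which 0 were called.

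**Figure D4:**
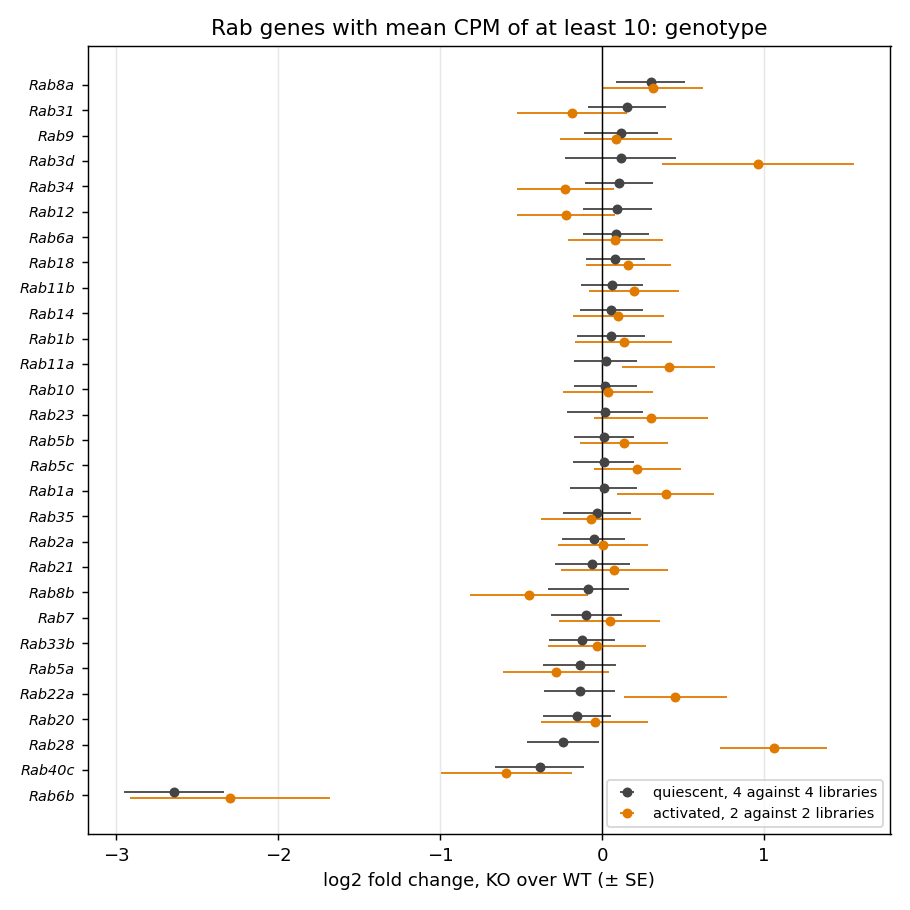
Log2 fold change of KO over WT (points) with its standard error (bars) for the 29 Rab genes with a mean of at least 10 CPM over the 12 libraries, in quiescent (4 against 4 libraries) and activated cells (2 against 2 libraries). Rab6b lies apart at -2.64 and -2.30, and Rab28 stands at 1.06 in activated cells.

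Activation was accompanied by changes in the levels of single Rab genes in both directions. Comparing activated with quiescent WT cells, 16 of 58 Rab genes were called, 4 higher and 12 lower, or 27.6%, where 26.2% of all tested genes were called, 9.65% higher and 16.5% lower. In KO cells 18 were called, 6 higher and 12 lower, or 31.0%, beside 29.6% of all tested genes, 11.1% higher and 18.5% lower. The shares were near those of all genes. These counts include Rab6b, whose fall uses the quiescent libraries from which it was known. With Rab6b left out, 15 of 57 genes were called in WT and 17 of 57 in KO, 11 of them lower in each genotype. Without the first activated KO library 11 Rab genes were called in KO. The median log2 fold change was -0.57 over the tested Rab genes in WT and -0.33 in KO cells, beside -0.92 and -0.96 over all tested genes. In both genotypes 13 genes were called, 4 higher and 9 lower, 3 were called only in WT and 5 only in KO, and no difference between the genotypes passed its own test. Across the 29 Rab genes with a mean of at least 10 CPM, the log2 fold changes in WT and KO, which share no library, had a Pearson correlation of 0.95 and a Spearman correlation of 0.94. Over all 58 tested Rab genes, which include those with few counts, the values were 0.48 and 0.68. These are correlations across genes, Rab6b among them, and all libraries of a state share the depth and sex noted above.

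**Figure D5:**
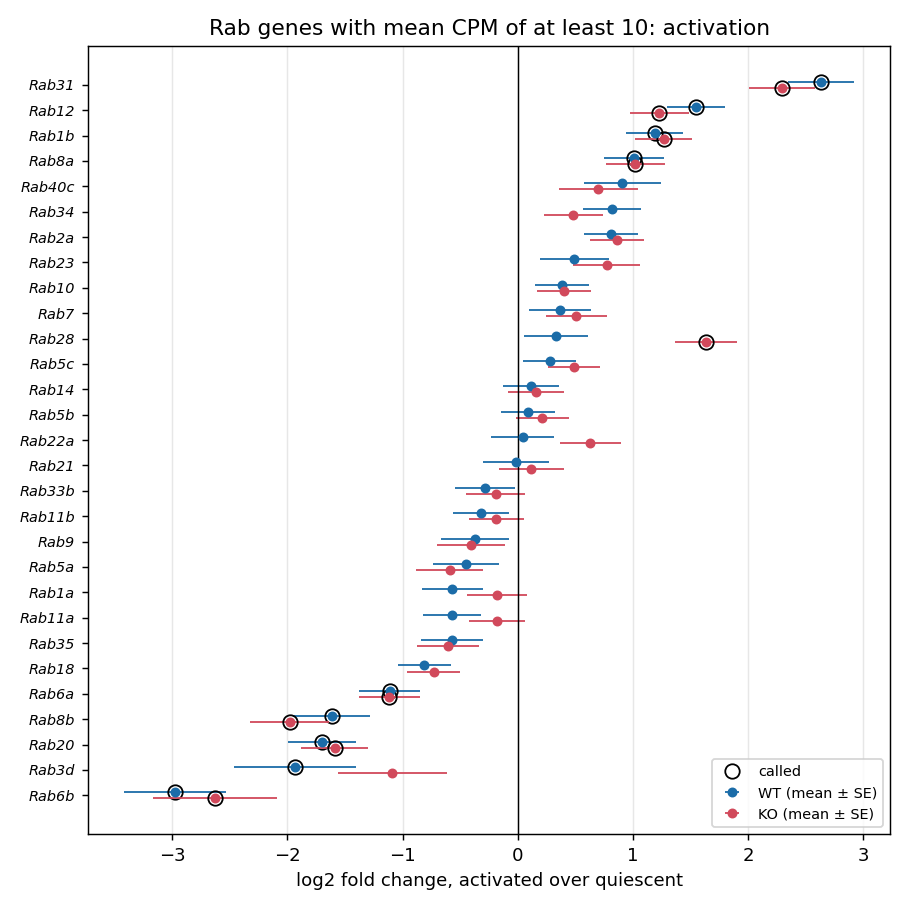
Log2 fold change of activated over quiescent cells (points) with its standard error (bars) in WT and KO for the 29 Rab genes with a mean of at least 10 CPM over the 12 libraries, with black rings on called values. Of the genes shown Rab31 rose most, by 2.63 in WT and 2.29 in KO, and Rab6b, Rab20 and Rab8b lie lowest among the genes called in both genotypes.

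The RNA levels of cell type markers also differed between the states, which does not tell a change in cell types from a change in RNA per cell. All 5 mature fibre markers (Acta1, Ckm, Myh4, Myh1 and Tnnt3) were called higher in activated cells of either genotype, and they summed to 227 to 808 CPM in quiescent and 5464 to 13410 CPM in activated libraries. Of the 10 satellite cell markers 7 were called lower in WT and 8 in KO, with sums of 5501 to 9921 CPM in quiescent and 3066 to 4344 CPM in activated libraries. All 5 smooth muscle and pericyte markers were called lower in both genotypes, from 1267 to 2264 CPM to 161 to 286 CPM. Of the 5 hematopoietic markers 3 were called lower in both genotypes, from 34.3 to 111 CPM to 14.0 to 18.0 CPM, with Cd52 at 0 in both activated WT libraries. Of the 5 endothelial markers 2 were called lower in WT and 1 in KO, and of the 5 fibroadipogenic progenitor markers 1 was called lower in each genotype and 1 higher in KO. Over all tested genes, 9.65% were called higher and 16.5% lower in WT, and 11.1% and 18.5% in KO. The part of these markers in the Rab values was not tested.

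The genes that rose in both genotypes act on endosomes, at the ER and Golgi and in exocytosis. The promoters of Rab31, the gene with the largest called rise in WT, and of the paralogs Rab8a and Rab8b, which moved in opposite directions, are shown. The windows are the 250 bases before the RefSeq start of each gene on GRCm38.p6, and capitals mark E-boxes, CANNTG, the motif bound by Myod1, Myf5 and other basic helix-loop-helix factors, which reads the same on both strands.
Rab31, chr17:65772753-65773002, minus strand: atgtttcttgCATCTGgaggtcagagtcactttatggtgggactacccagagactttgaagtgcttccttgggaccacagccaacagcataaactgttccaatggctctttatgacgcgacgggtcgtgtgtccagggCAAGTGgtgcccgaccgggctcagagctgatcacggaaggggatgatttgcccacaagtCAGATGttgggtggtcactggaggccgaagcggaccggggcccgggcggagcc
Rab8a, chr8:72160950-72161199, plus strand: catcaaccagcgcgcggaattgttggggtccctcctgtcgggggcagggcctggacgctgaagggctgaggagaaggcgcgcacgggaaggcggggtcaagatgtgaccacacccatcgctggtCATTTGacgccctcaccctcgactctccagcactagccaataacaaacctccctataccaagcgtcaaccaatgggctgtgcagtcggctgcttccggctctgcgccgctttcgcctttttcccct
Rab8b, chr9:66919706-66919955, minus strand: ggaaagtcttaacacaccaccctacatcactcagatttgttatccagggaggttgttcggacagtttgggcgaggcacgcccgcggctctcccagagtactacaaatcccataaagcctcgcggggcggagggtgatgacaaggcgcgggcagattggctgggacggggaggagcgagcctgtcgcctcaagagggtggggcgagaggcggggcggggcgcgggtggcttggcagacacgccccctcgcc
The Rab31 window held 3 E-boxes, the Rab8a window 1 and the Rab8b window 0. This order did not hold for the other genes called in both genotypes. The windows of Rab12 and Rab1b, which rose, held 0. Those of Rab20, Rab6a and Rab6b, which fell, held 1 each, and those of Rab27a, which also fell, held 1 and 6. Of 60 RefSeq promoters of 48 Rab genes, 63.3% held the motif, as did 66.2% of 32851 promoters of all genes. The cyclic AMP response element TGACGTCA, which also reads the same on both strands, was in 3.33% of the Rab promoters, or 2, and in 1.55% of all promoters.

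Rab31 (ENSMUSG00000056515, chromosome 17 from 65651729 to 65772752), a Rab5-related GTPase of early endosomes and the trans-Golgi network, had the largest called rise in WT and the second largest in KO, after Rab40b. It was at 29.3, 31.2, 32.2 and 43.3 CPM in quiescent WT and at 199 and 223 CPM in activated WT libraries, and at 26.1, 26.9, 50.9 and 47.5 CPM in quiescent KO and at 214 and 157 CPM in activated KO libraries. The groups did not overlap in either genotype, and the log2 fold change was 2.63 (standard error 0.28, edgeR adjusted p = 1.13e-06) in WT and 2.29 (standard error 0.28, adjusted p = 4.53e-06) in KO. Its place in the per-length order moved from 22nd to 5th in WT.

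Rab12, which acts in transport from recycling endosomes to lysosomes and in autophagy, was at 26.4 to 45.9 CPM in the 4 quiescent WT and at 99.5 and 118 CPM in the activated WT libraries (log2 fold change 1.54, standard error 0.25, edgeR adjusted p = 0.000109). In KO it was at 32.9 to 48.2 CPM and at 89.1 and 97.0 CPM (log2 fold change 1.23). Rab1b, of ER to Golgi transport, was at 43.2 to 75.1 CPM in quiescent WT and at 113 and 145 CPM in activated WT libraries (log2 fold change 1.19, standard error 0.25, adjusted p = 0.00112). In KO it was at 47.6 to 64.2 CPM and at 137 and 145 CPM (log2 fold change 1.27). Its paralog Rab1a was not called, at a mean of 55.3 CPM per kilobase in quiescent and 37.3 CPM per kilobase in activated WT cells. Rab8a, which guides vesicles to the plasma membrane, was at 20.4 to 27.1 CPM in quiescent WT and at 55.4 and 34.2 CPM in activated WT libraries (log2 fold change 1.01, standard error 0.26, adjusted p = 0.00608), near the threshold. In KO it was at 26.1 to 29.3 CPM and at 66.8 and 45.6 CPM (log2 fold change 1.02). The Rab8a call was lost without the first activated library of the genotype, at an edgeR adjusted p of 0.228 in WT and 0.174 in KO.

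Rab8b, the paralog of Rab8a, fell. It was at 161, 154, 211 and 269 CPM in quiescent WT and at 76.5 and 52.5 CPM in activated WT libraries, and at 135, 151, 178 and 284 CPM in quiescent KO and at 45.0 and 50.0 CPM in activated KO libraries, with no overlap. The log2 fold change was -1.61 (standard error 0.34, edgeR adjusted p = 0.00106) in WT and -1.98 in KO. Rab8a and Rab8b thus moved in opposite directions in each genotype. Rab20, of endosomes and phagosomes, fell from a mean of 48.9 to 14.7 CPM in WT (log2 fold change -1.70) and from 43.9 to 14.6 CPM in KO (-1.59), and 25.6% of its exons by length overlap E230013L22Rik on the other strand. Rab6a fell in both genotypes, with the library values given above (log2 fold change -1.11 in WT, standard error 0.27, edgeR adjusted p = 0.00351, and -1.12 in KO). Without the second activated library of the genotype the Rab6a call was lost, at an adjusted p of 0.0795 in WT and 0.0554 in KO. Its place in the per-length order moved from 2nd to 10th in WT, as Rab2a and Rab1b moved to 3rd and 4th. Rab6b was called lower as well, with log2 fold changes of -2.97 in WT and -2.63 in KO, which use the quiescent libraries from which it was known.

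Among Rabs of regulated secretion, Rab27a, which tethers secretory vesicles, fell from 11.2 to 2.43 CPM in WT (log2 fold change -2.11) and from 11.1 to 2.35 CPM in KO (-2.22). Rab7b, a late endosomal Rab, fell from 9.71 to 0.709 CPM in WT and from 15.8 to 2.54 CPM in KO. Rab3d, of secretory granules, was called lower in WT alone, from 12.7 to 3.55 CPM. In WT the calls of Rab27a and Rab7b were lost without either activated library, where the edgeR adjusted p reached 0.108 and 0.0591. That of Rab3d was lost without the first (adjusted p = 0.216) and held without the second. In KO the Rab27a call was lost without the first activated library. The Rab7b call in KO was lost in 5 of 14 alternative settings. Among these were the fits without either activated KO library and the replicate block. It was also lost without the fourth quiescent KO library, which held 40.8 CPM of Rab7b (edgeR adjusted p = 0.057).

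The 5 called Rab genes with the largest fitted falls in WT had low levels. For these the shallow depth of activated libraries sets the size that can be stated. A fold change fitted against 0 counts is not a measured size, so these genes are not ranked against Rab6b or Rab7b. Rab2b had 52, 47, 92 and 59 counts in quiescent WT and 0 and 0 counts in activated WT libraries, at least 9.12-fold lower against a floor of 3 counts over the group. Rab37, of mast cell and secretory granules, had 40, 48, 27 and 23 counts and then 0 and 0, at least 5.03-fold lower, and Rab3b had 20, 32, 21 and 15 counts and then 0 and 0, at least 3.21-fold lower. Rab44, a large atypical Rab, had 165, 72, 165 and 135 counts in quiescent WT and 1 and 0 counts in activated WT libraries, a ratio of 58.8 with a 95% counting interval from 10.5 to 2325. Rab36 had 57, 53, 92 and 104 counts and then 1 and 0, a ratio of 33.5 with an interval from 5.97 to 1327. These intervals and floors cover counting error only. In KO, Rab44 and Rab36 were also called lower, as was Rab37, whereas Rab2b and Rab3b were not, with counts of 34, 9, 22 and 55 and then 2 and 2 for Rab2b, and of 53, 31, 65 and 21 and then 8 and 8 for Rab3b. Of 14 alternative settings, the Rab37 call was lost in 1 in WT and in 3 in KO. The Rab3b call in WT was lost in 6, DESeq2 among them, and the Rab36 call in KO in 6. Each of these 4 calls was lost without the first activated library of the genotype, a fit that leaves 1 such library. Of the exons of Rab2b, 59.3% by length overlap Gm43766 on the opposite strand, and strand use in the authors' counting was not given in the sources used here.

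Called in KO alone were Rab28 (14.7 to 45.5 CPM, log2 fold change 1.63, edgeR adjusted p = 9.26e-05), Rab40b, of a ubiquitin ligase family, (1.59 to 9.41 CPM, 2.57), and, lower, Rab27b, Rab38 and Rab32. In WT, Rab28 had a log2 fold change of 0.33 (adjusted p = 0.357). The calls of Rab38 and Rab32 were lost in 11 and 10 of 14 alternative settings. Rab40b was lost without the second activated KO library (adjusted p = 0.0824), and Rab27b without the first (0.212) or the second (0.0545).

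By role, 1 of 14 tested ER and Golgi Rabs was called higher and 4 lower in WT, and 1 and 3 in KO. Rab6b is among those called lower in each genotype. Of 12 Rabs of exocytosis and regulated secretion 1 was called higher and 5 lower in WT, and 1 and 4 in KO. Of 16 early endosome and recycling Rabs, and likewise of 7 late endosome, lysosome and autophagy Rabs, 1 was called higher and 1 lower in each genotype. Of 3 Rabs of lysosome-related organelles 1 was called lower in WT and all 3 in KO, on few counts in activated cells. None of the 6 Rabs of cilia, lipid droplets, ubiquitin ligases and other roles was called in WT, and 2 were called higher in KO. Beside these counts, 9.65% of all tested genes were called higher and 16.5% lower in WT, and 11.1% and 18.5% in KO.

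The regulators of Rabs were described by lists chosen with earlier results known, and their counts stand beside the 9.65% of all tested genes called higher and the 16.5% called lower in WT. Of 52 tested GEFs 7 were called higher and 12 lower in WT. Rin1, a Rab5 GEF, rose from 3.00 to 63.8 CPM (log2 fold change 4.41) and Trappc5, of the TRAPP complexes, from 15.6 to 62.4 CPM (2.00), whereas Dennd2d fell from 1.77 to 0.0817 CPM and Dennd1c from 2.50 to 0.163 CPM. Of 38 tested GAPs 2 were called higher, Tbc1d13 (13.0 to 43.9 CPM) and Tbc1d24 (11.1 to 24.6 CPM). A further 9 were called lower, with Tbc1d32 (8.85 to 0.382 CPM) and Evi5l (26.2 to 5.54 CPM) furthest. In the first activated WT library 1 count equals 0.163 CPM, and in the second 0.438 CPM. The activated WT values of Dennd2d, Dennd1c and Tbc1d32 rest on few counts, so the sizes of their falls are uncertain. Of 18 tested Rab6 effectors and partners, Cog6, of the COG Golgi tethering complex, was called higher (8.69 to 19.3 CPM) and Mical3, Myh10 and Dennd5a lower, Mical3 from 132 to 30.7 CPM and Myh10 from 56.9 to 15.2 CPM. Of 51 other effectors 2 were called higher, Fyco1 (25.8 to 67.8 CPM) and Lrrk1 (18.0 to 36.6 CPM), and 14 lower, with Rims2 and Sytl4 furthest. No gene of these lists was called between KO and WT in either state. Over all tested genes 0.0155% were called in quiescent and 0.0504% in activated cells. At such shares the lack of calls is no result about the lists.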

How the data were processed

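Sequenced RNA of sorted Pax7-ZsGreen+ satellite cells was compared, 4 WT and 4 KO from quiescent and 2 WT and 2 KO from activated cells. The authors trimmed reads with Trim Galore 0.6.0, aligned them with STAR 2.7.2a to GRCm38 and counted them on GENCODE release 25 genes; the deposited counts are raw whole-number counts per gene. The authors also deposited FPKM values, 1 pooled value per group, whose scaling is not given in the sources used here. Groups were taken from the sample labels. Counts were filtered with filterByExpr, scaled by TMM and fitted in 1 quasi-likelihood model of 4 group means over all genes with edgeR 4.0.16 in R 4.3.3, and standard errors were derived from the fold change and F statistic. CPM were scaled by TMM. Alternatives were DESeq2 size factors, no filter, a mean count of at least 10, the adjusted p alone, DESeq2 1.42.0, edgeR on the compared groups, removal of the ribosomal RNA gene, a block for the replicate number, and each library left out in turn. The code was tested on simulated counts. Gene positions are from GENCODE release 21 and promoter sequences from RefSeq GRCm38.p6. The Rab family, lists and rules were chosen with earlier results of these data known. The text names with library values Rab6b, Rab6a, genes called between genotypes and the 5 furthest called rises and falls in WT, and with means or folds other genes called in both genotypes, the 10 highest per length, genes at an unadjusted p under 0.05 between genotypes in activated cells, and the 2 furthest called genes each way of each list; Rab8b and Rab28 library values, Rab3d, Rab7b, Rab27a, Rab33a and genes called in 1 genotype were added after their values were seen. Some list and marker results are not reported here.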

Additional observations from a re-analysis of the deposited data

Results flagged for a closer look

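Among 116 sets of 4 quiescent libraries, each the values of 1 Rab gene in 1 genotype, 11 had a library whose gap to the nearest other exceeded Dixon's 95% critical value. Chance flags about 1 in 20 groups. Rab6b was 46.9 CPM in quiescent WT library 1 (others 34.6 to 35.4 CPM) and 3.21 CPM in quiescent KO library 2 (others 6.73 to 7.25 CPM). Rab7b was 40.8 CPM in quiescent KO library 4 (others 4.78 to 10.1 CPM), Rab33b was 29.2 CPM there (others 26.2 to 26.6 CPM), and Rab3a was 0.626 CPM in quiescent KO library 1 (others 0.125 to 0.205 CPM). In quiescent WT library 4, Rab10 was 254 CPM (others 183 to 194 CPM), Rab33b was 37.6 CPM (others 25.5 to 27.6 CPM), Rab39b was 6.17 CPM (others 2.09 to 2.77 CPM) and Rab26 was 0.241 CPM (others 0.639 to 0.679 CPM). In quiescent WT library 1, Rab18 was 133 CPM (all others 143 CPM) and Rab17 was 0.992 CPM (others 0 to 0.071 CPM).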

How the results depend on the processing

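The number of Rab genes called on activation was 13 to 16 in WT and 11 to 17 in KO when each library was left out in turn. The count of 11 came without activated KO library 1 and the cause was not tested. No Rab gene was called between the genotypes in activated cells as reported, but 1, Rab6b, was called with no filter on low counts and without activated WT library 2. Its log2 fold change was -2.29 with no filter and -2.70 without that library, and lay between -3.39 and -1.70 over the fits that left out 1 library. In quiescent cells the 1 gene called was Rab6b, known from that contrast, so its count in other fits is no sign of stability. The difference between the states called 0 in each fit. Where a fit left 1 activated library of a genotype, that library was assumed to vary like the other groups. Leaving out the second activated library of both genotypes, an alternative chosen after seeing the data, gave 14 calls in WT and 13 in KO and shifted the median of all genes in KO by -0.18. Rab8a was lost in 5 WT settings and 2 KO settings and Rab6a in 3 and 4. Of the values with no call, 2 changed sign when a library was left out: Rab3b on activation in KO (-0.376 to 0.012, positive without quiescent KO library 1) and Rab6a between genotypes in activated cells (-0.0717 to 0.0748 where replicates were left out, negative without WT library 2). With the replicate number as a block, 14 genes were called in WT, 12 in KO, 0 between genotypes in activated and 1 in quiescent cells. Same-numbered quiescent libraries of the genotypes had correlations of 0.24, 0.16, -0.27 and 0.59 in their deviations, and differently numbered ones lay between -0.478 and 0.321. Activated same-numbered libraries had -0.07 and -0.07, but with 2 libraries per group all such values have the same size, so they cannot test pairing. Whether the numbers pair the samples was left undecided, and the main fit took the libraries as unpaired. Rab6b could not be fitted in activated cells in the fit of the compared groups or with the replicate block, where it did not pass the filter.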
